A study of Mus musculus with 10 samples.

Results

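The immunity-related GTPases (IRG proteins) and guanylate-binding proteins (GBPs) are interferon-inducible GTPases, and 10 of their genes were taken by symbol from the 24016 genes held in both expression tables: the IRG genes IRGM1, IRGM2, IGTP, IIGP1 and IFI47, and the GBP genes GBP2, GBP3, GBP4, GBP6 and GBP7. The data are RNA-seq of 10 libraries from organoids of mouse prostate cancer, which are epithelial cells of the dorsal-lateral prostate grown as small hollow structures in gel. The organoids came from C57BL/6 mice at postnatal week 8, and those of every group overexpressed cMYC, carried floxed Ezh2 alleles and an inducible PSA-CreERT2 recombinase, and grew with 10 nM of the synthetic androgen R1881. In the chemical experiment, 3 libraries were from organoids given 1 µM DZNep, labelled an EZH2 inhibitor, and 3 from organoids given its solvent DMSO. In the genetic experiment, 2 libraries were from organoids given 1 µM Tamoxifen, which switches the recombinase on, and 2 from organoids given its solvent EtOH. All were collected 3 days after treatment. The recombinase is driven by the PSA promoter, so only cells in which that promoter is active can lose Ezh2. EZH2 is the methyltransferase of the Polycomb repressive complex that marks histone H3, and DZNep is known to block the hydrolase that clears S-adenosylhomocysteine, which slows methyltransferases in general.

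IRG proteins and GBPs defend a cell from within. Interferons raise their transcription, and the proteins then gather on the vacuoles that hold parasites and bacteria such as Toxoplasma gondii and Chlamydia and break them open. In the mouse, IRGM1, IRGM2 and IGTP (also called Irgm3) are the regulatory IRG proteins, which sit on the cell's own membranes and keep effector IRG proteins such as IIGP1 (Irga6) switched off there, while GBPs act on vacuoles and on free bacterial lipopolysaccharide and feed the inflammasome. Most of what is known of them comes from macrophages and fibroblasts rather than from prostate epithelium.

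The genes sit in clusters of their family. On mouse chromosome 11, IRGM1 and IFI47 lie at the 2 ends of a row of 8 IRG genes, and IGTP and IRGM2 are neighbours in a second row, 132 other protein-coding genes away. IIGP1 lies among IRG genes of chromosome 18, GBP7, GBP3 and GBP2 in the row on chromosome 3, and GBP4 and GBP6 in the row on chromosome 5.

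Levels are given as RPKM, reads scaled to transcript length and to the number of mapped reads, which allows genes of different length to be compared. Every one of the 10 genes was higher in each DZNep library than in any DMSO library, and higher in each Tamoxifen library than in any EtOH library. Such a separation was found for 20.7% of all genes in the chemical experiment and for 30.4% in the genetic one, where 2 libraries stood against 2. IRGM1 was the only gene of the 10 with a level above 10 RPKM, IRGM2 and IGTP lay between 0.727 and 6.60 RPKM, and the other 7 lay at 1.50 RPKM or less in every library.

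Most of the 10 genes rose together with DZNep, and their promoters were read from RefSeq on build GRCm38.p6, from 250 bases before the annotated start to 50 after it, for the 7 members with an entry; IIGP1, GBP4 and GBP6 had none. The letters of 2 patterns were searched on both strands. The first was the core of the interferon-stimulated response element, GAAANNGAAA, or TTTCNNTTTC on the other strand, the kind of sequence bound by interferon regulatory factors. The second was the gamma-activated site, TTCNNNGAA; its last 3 letters can also be the first 3 of the response element core, which was the case in none of these members.

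The following stretches of 110 bases are shown because they hold the matches of the 3 IRG genes with the highest levels and of 2 GBP genes, with IFI47 as the member whose window held neither pattern. Each is written 5′ to 3′ on the strand of its gene, in lower case, with matches to either pattern in capitals.
IRGM1, chr11:48871421-48871530, minus strand: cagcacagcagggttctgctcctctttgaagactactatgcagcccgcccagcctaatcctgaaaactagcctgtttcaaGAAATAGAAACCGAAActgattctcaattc
IGTP, chr11:58199446-58199555, plus strand: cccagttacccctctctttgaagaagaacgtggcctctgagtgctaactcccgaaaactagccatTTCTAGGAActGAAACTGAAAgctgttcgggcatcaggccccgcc
IRGM2, chr11:58214867-58214976, plus strand: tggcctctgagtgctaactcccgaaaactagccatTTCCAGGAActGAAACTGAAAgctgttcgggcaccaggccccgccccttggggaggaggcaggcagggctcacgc
GBP3, chr3:142559934-142560043, plus strand: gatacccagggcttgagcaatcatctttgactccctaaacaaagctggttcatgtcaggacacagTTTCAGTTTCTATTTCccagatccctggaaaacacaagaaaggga
GBP7, chr3:142530226-142530335, plus strand: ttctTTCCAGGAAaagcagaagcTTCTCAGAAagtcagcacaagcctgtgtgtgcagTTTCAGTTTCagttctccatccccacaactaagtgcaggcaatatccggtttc
IFI47, chr11:49076477-49076586, plus strand: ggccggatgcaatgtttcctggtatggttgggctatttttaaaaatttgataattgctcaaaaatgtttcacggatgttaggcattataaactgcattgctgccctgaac

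The response element core was found in 6 of the 7 members with an entry (IRGM1, IRGM2, IGTP, GBP2, GBP3 and GBP7), and 3.44% of all 32851 promoter windows held it. The gamma-activated site was found in 3 of the 7 (IRGM2, IGTP and GBP7), and 8.30% of all windows held it. In IRGM1 and GBP3 there were 2 overlapping cores. GBP3 has a second annotated start, whose window held neither pattern. The windows of IGTP and IRGM2 share a run of 61 identical bases, and 184 of 270 aligned bases were identical (68.2%, aligned without gaps). In both, a gamma-activated site begins 11 bases before a response element core on the sense strand. That arrangement, a spacing chosen after the promoters had been read, was present in 5 of the 32851 windows, and all 5 belong to IRG genes: IGTP, IRGM2, TGTP1, TGTP2 and GM12185. A match is a description of letters and not a bound site, and the absence of one in IFI47 says only that these letters are not in this window.

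**Figure D1:**
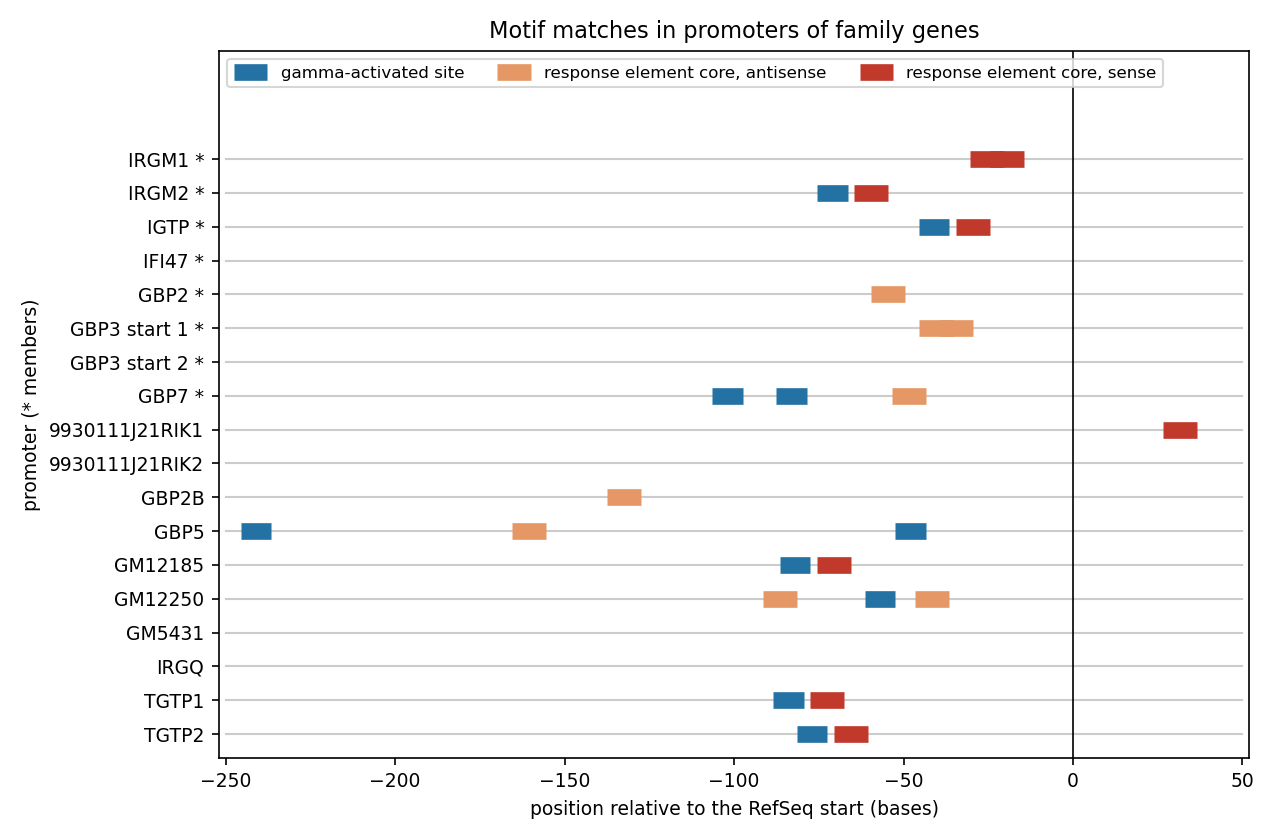
Matches to the gamma-activated site and to the response element core (sense or antisense strand) in promoter windows of IRG and GBP genes, by position in bases relative to the RefSeq start (vertical line at 0); members carry a star. Matches of the members lie between 106 and 15 bases before the start, and IFI47 has none.

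The first question was which of these genes respond to DZNep. All 3 members above the expression filter rose, IRGM1, the most abundant, by 2.79-fold, IRGM2 by 4.41-fold and IGTP by 4.84-fold in their means. IRGM1, whose loss in mice impairs lymphocytes and blood stem cells exposed to interferon gamma, had 35.0, 36.6 and 38.1 RPKM in the DZNep libraries, against 13.1, 12.9 and 13.4 RPKM in the DMSO libraries. The 2 groups were far apart and tight, with means of 36.6 ± 1.54 RPKM under DZNep and 13.1 ± 0.282 RPKM under DMSO (SD, n = 3 each). On the log2(RPKM + 1) scale this was a rise of 1.41 (SE 0.0487; limma moderated test, Benjamini-Hochberg adjusted p = 2.32e-06), which ranks 61 among the upward changes of 11143 genes tested. Of those genes, 27.7% passed the threshold of 0.05 in either direction and 16.6% were higher.

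IRGM2, a regulator that also restrains the response of caspases to lipopolysaccharide, had 4.86, 4.84 and 4.76 RPKM in the DZNep libraries, against 0.978, 1.22 and 1.09 RPKM in the DMSO libraries. Its 3 DZNep values differed by less than its 3 DMSO values did, and the 2 groups lay far apart. IGTP, the third regulator, had 6.60, 5.62 and 5.15 RPKM in the DZNep libraries, against 1.07, 1.28 and 1.25 RPKM in the DMSO libraries. It had the largest change on the log2(RPKM + 1) scale of the 10 genes, 1.62 (SE 0.0877, adjusted p = 2.54e-05 by limma), and IRGM2 followed with 1.48 (SE 0.0636, adjusted p = 7.32e-06). With 3 libraries a group, an exact permutation test, two-sided, cannot give a p below 0.1, and each of the 10 genes reached that value in the chemical experiment.

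The other 7 members averaged less than 1 RPKM and were left out by the filter of that level, so their tests come from a fit of all 17137 genes with a value above 0. In that fit 9 of the 10 members were higher, none was lower, and 17.3% of all genes passed in either direction, with 10.3% higher. The median change of the 10 members was 0.77 on the log2(RPKM + 1) scale, against 0.0038 for all genes in the fit. This scale understates changes of genes near or below 1 RPKM, so ratios of mean RPKM are given beside it.

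Among the effectors, IIGP1, which coats the vacuole of Toxoplasma in mouse cells, had 0.756, 0.797 and 0.543 RPKM in the DZNep libraries, against 0.118, 0.117 and 0.0683 RPKM in the DMSO libraries. IFI47 (also called Irgd), a further IRG protein known to reach such vacuoles, had 0.776, 0.634 and 0.582 RPKM with DZNep, against 0.142, 0.0908 and 0.0920 RPKM with DMSO. In both, the lowest DZNep library was several times the highest DMSO library. IIGP1 was 6.91-fold higher by its mean, with a change of 0.62 on the log2(RPKM + 1) scale (SE 0.0607, adjusted p = 0.00345 by limma). IFI47 was 6.14-fold higher, with a change of 0.59 (SE 0.0467, adjusted p = 0.0019 by limma).

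Of the GBP genes of chromosome 3, whose joint loss in mice weakens the response of macrophages to cytosolic bacteria, GBP2 had 1.50, 1.10 and 1.46 RPKM in the DZNep libraries, against 0.282, 0.408 and 0.415 RPKM in the DMSO libraries. GBP3 had 1.43, 1.23 and 1.30 RPKM with DZNep, against 0.169, 0.219 and 0.146 RPKM with DMSO. GBP7, which in mouse macrophages helps assemble the NADPH oxidase, had 0.975, 1.04 and 0.984 RPKM with DZNep, against 0.185, 0.155 and 0.173 RPKM with DMSO. No DZNep library of any of these 3 genes came near a DMSO library. GBP3 had the largest ratio of means of the 10 genes, 7.42-fold, with a change of 0.98 on the log2(RPKM + 1) scale (SE 0.0421, adjusted p = 2.49e-04 by limma). GBP7 was 5.84-fold higher (0.77, SE 0.0226, adjusted p = 8.65e-05) and GBP2 3.67-fold higher (0.78, SE 0.0802, adjusted p = 0.00383), both by limma.

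The 2 members of chromosome 5 had the smallest changes on the log2(RPKM + 1) scale. GBP6 had 0.387, 0.395 and 0.321 RPKM in the DZNep libraries, against 0.196, 0.167 and 0.140 RPKM in the DMSO libraries, a ratio of 2.19 and a change of 0.23 on the log2(RPKM + 1) scale (SE 0.029, adjusted p = 0.00701 by limma). GBP4 was close to 0 throughout, with 0.0720, 0.0544 and 0.125 RPKM with DZNep, against 0.0253, 0.0082 and 0.0127 RPKM with DMSO. Its groups did not overlap and its means were 5.44-fold apart, but its change of 0.093 missed the threshold (SE 0.0251, adjusted p = 0.0548 by limma). GBP4 passed with a pseudocount of 0.1 RPKM (0.66 on that scale, adjusted p = 0.0343) and without the third DZNep library (adjusted p = 0.0478).

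**Figure D2:**
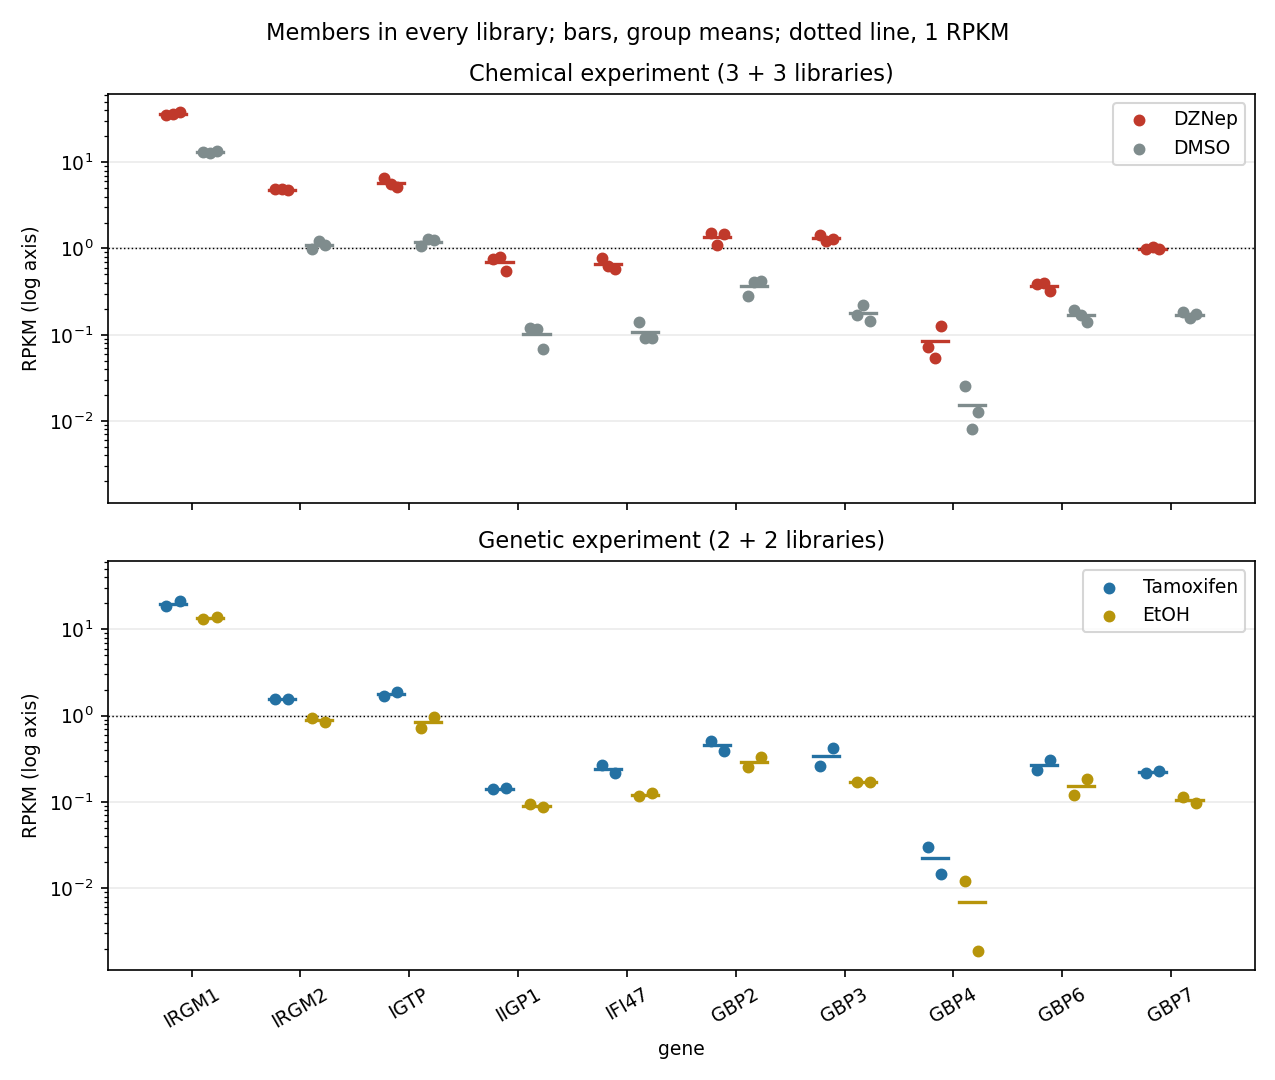
RPKM of the 10 members in each library on a log axis, with bars at group means, for the chemical experiment (DZNep left of DMSO) and the genetic experiment (Tamoxifen left of EtOH); the dotted line marks 1 RPKM. Treated points lie above control points for each gene, by more in the chemical experiment, and IRGM1 stands above the rest in every group.

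**Figure D3:**
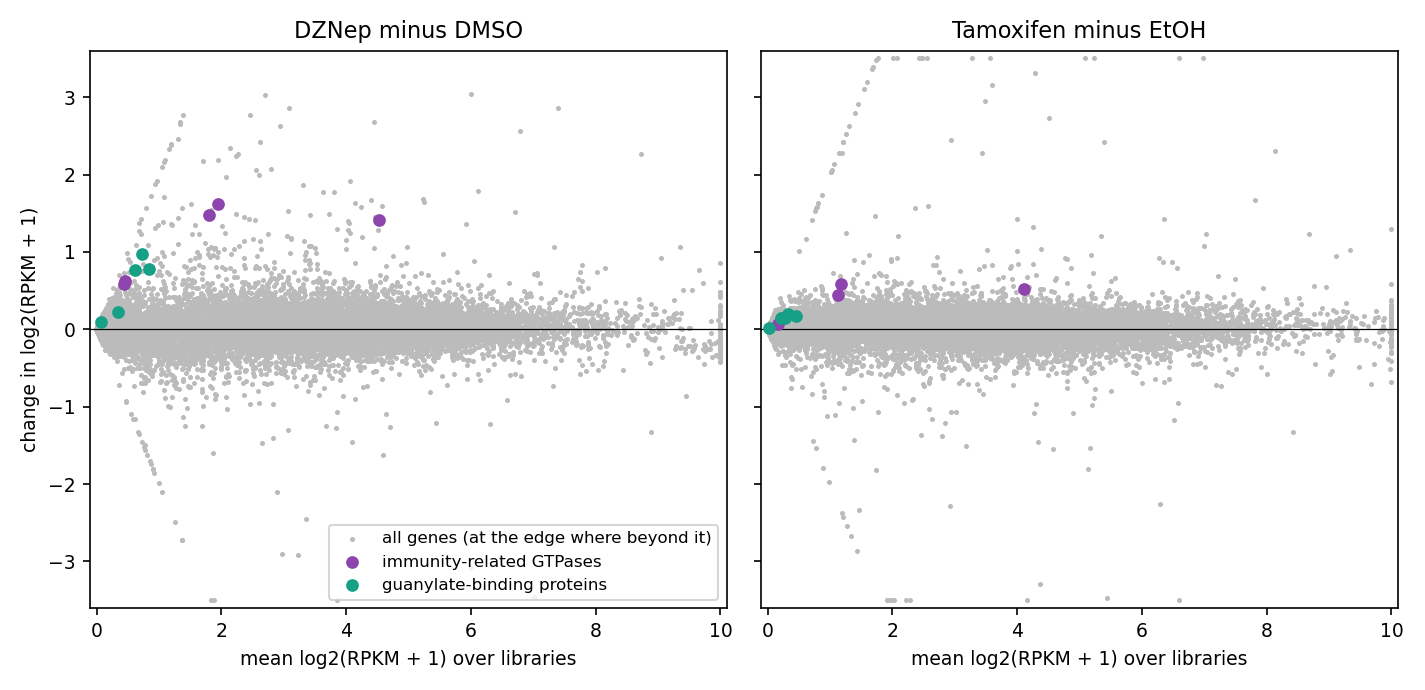
Change on the log2(RPKM + 1) scale against the mean level of every gene with a value above 0, DZNep minus DMSO on the left and Tamoxifen minus EtOH on the right, with the IRG and GBP members in colour and genes beyond the axes drawn at their edge. All 10 members lie above 0 in both panels, from 0.093 to 1.62 on the left and from 0.022 to 0.59 on the right.

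Bulk RNA values cannot tell more cells of a type from more RNA per cell, so the markers of other cells were read beside these results. Of 17 immune markers in the tables, CD68 and CD52 averaged 1 RPKM or more, PTPRC, CD3E, CSF1R, EMR1, ITGAX and NKG7 were at or near 0 in all groups, and the sum of the 17 was 17.8 to 19.6 RPKM in the DZNep libraries, against 14.8 to 19.0 RPKM in the DMSO libraries. The sum of 9 endothelial markers was 2.31 to 2.85 RPKM with DZNep, against 2.50 to 3.15 RPKM with DMSO. Of the marker sums, 2 differed without overlap: 12 fibroblast and smooth muscle markers, with 3 averaging 1 RPKM or more, summed to 9.54 to 10.4 RPKM with DZNep, against 4.51 to 5.89 RPKM with DMSO, and 7 basal prostate markers summed to 6711 to 6984 RPKM, against 4955 to 5253 RPKM. Within the fibroblast and smooth muscle sum, DCN (mean 6.11 RPKM with DZNep and 2.77 RPKM with DMSO) and ACTA2 (2.62 RPKM with DZNep and 0.692 RPKM with DMSO) were higher, while FBLN1 was lower (0.914 RPKM with DZNep and 1.36 RPKM with DMSO) and COL1A1, PDGFRA and PDGFRB averaged less with DZNep, near 0 in both groups. The basal sum was mostly KRT5, KRT14 and KRT15, which were higher with DZNep, as was NGFR at a far lower level. TRP63 overlapped (44.7 to 48.0 RPKM with DZNep, against 43.5 to 51.2 RPKM with DMSO), as did TRP73. ITGA6 was lower without overlap (38.5 to 40.0 RPKM with DZNep, against 44.7 to 50.5 RPKM with DMSO). The 10 luminal prostate markers summed to 4150 to 4379 RPKM with DZNep, against 4145 to 4309 RPKM with DMSO, although 1 of them, PBSN, was at 0. The part of these marker differences in the results for the 10 genes was not tested. The 10 libraries were otherwise alike, with 15021 to 15404 genes above 0, 11037 to 11094 genes at 1 RPKM or more, and 7.18 to 8.81% of the total RPKM in the 10 highest genes.

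The second question was whether the genes respond to Tamoxifen, given to delete Ezh2. EZH2 itself, the targeted gene, had 32.0 and 33.2 RPKM in the Tamoxifen libraries, against 27.9 and 34.0 RPKM in the EtOH libraries, so its values overlapped (change 0.078, SE 0.0986, adjusted p = 0.635 by limma). The value sums all exons, floxed or not, and so is no measure of how many cells lost Ezh2, and the groups are named here by the agent given. In the chemical experiment EZH2 had 22.5, 24.2 and 24.7 RPKM with DZNep, against 30.4, 29.8 and 27.1 RPKM with DMSO (change -0.28, SE 0.0612, adjusted p = 0.0142 by limma).

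IRGM1 rose with Tamoxifen, by 1.47-fold. It had 18.5 and 21.1 RPKM in the Tamoxifen libraries, against 13.2 and 13.9 RPKM in the EtOH libraries, so the groups lay further apart than the libraries within either. Its change on the log2(RPKM + 1) scale was 0.52 (SE 0.0772, adjusted p = 0.0462 by limma among 11123 genes), close to the threshold. Of the 3 members tested in that fit it was the only one that passed, where 2.07% of genes passed in either direction and 0.692% were higher. The call was lost without the first Tamoxifen library (adjusted p = 0.111), the second (0.273) or the first EtOH library (0.0692), in the fit without a filter (0.130) and in that without a mean trend (0.0593), while the change kept its direction in each.

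IRGM2 had 1.55 and 1.56 RPKM in the Tamoxifen libraries, against 0.934 and 0.838 RPKM in the EtOH libraries, with means 1.76-fold apart. IGTP had 1.68 and 1.87 RPKM with Tamoxifen, against 0.727 and 0.961 RPKM with EtOH, 2.10-fold apart. Neither passed (0.44, SE 0.0876, adjusted p = 0.0718 for IRGM2, and 0.59, SE 0.105, adjusted p = 0.0609 for IGTP, both by limma). Both averaged below 1 RPKM with EtOH and were in the fit through their Tamoxifen libraries. Both passed when the variances were estimated robustly, IRGM2 with an adjusted p of 0.0325 and IGTP with an adjusted p of 0.0228, but with robust variances and no filter 0 of the 10 members passed.

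The 7 members of lower level were also higher in each Tamoxifen library than in either EtOH library, and none passed at an adjusted p of 0.05. IIGP1 had 0.141 and 0.146 RPKM with Tamoxifen, against 0.0937 and 0.0874 RPKM with EtOH, and IFI47 had 0.269 and 0.216 RPKM, against 0.118 and 0.126 RPKM. GBP2 had 0.513 and 0.391 RPKM with Tamoxifen, against 0.251 and 0.330 RPKM with EtOH, the narrowest gap of the GBP genes of chromosome 3. GBP3 had 0.261 and 0.426 RPKM with Tamoxifen, against 0.169 and 0.170 RPKM with EtOH, and its Tamoxifen libraries differed more from each other than its EtOH libraries did. GBP7 had 0.218 and 0.228 RPKM with Tamoxifen, against 0.114 and 0.0974 RPKM with EtOH, and was 2.11-fold higher by its mean. GBP6 had 0.233 and 0.310 RPKM, against 0.122 and 0.185 RPKM, and GBP4 had 0.0300 and 0.0146 RPKM, against 0.0120 and 0.0019 RPKM, the lowest level of any member in either experiment.

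In the fit of all 16382 genes with a value above 0, none of the 10 members passed and 0.00610% of all genes did, a single gene. The 10 changes were all above 0, from 0.022 for GBP4 to 0.59 for IGTP, with a median of 0.16 against 0.012 for all genes. Unadjusted limma p-values were below 0.05 for 9 of the 10, GBP4 being the exception with 0.220, where 19.4% of all genes were below 0.05 in either direction and 10.7% were higher, and adjusted p-values ran between 0.117 and 0.486. With 2 libraries in each group an exact permutation test cannot give a p below 0.333. Marker sums beside these values were 14.2 to 16.6 RPKM with Tamoxifen and 12.9 to 15.8 RPKM with EtOH for immune markers, 4066 to 4178 RPKM with Tamoxifen and 5131 to 5529 RPKM with EtOH for basal markers, and 3618 to 3822 RPKM with Tamoxifen and 4125 to 4449 RPKM with EtOH for luminal markers. The basal and luminal sums were thus lower with Tamoxifen without overlap, and their part was not tested.

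**Figure D4:**
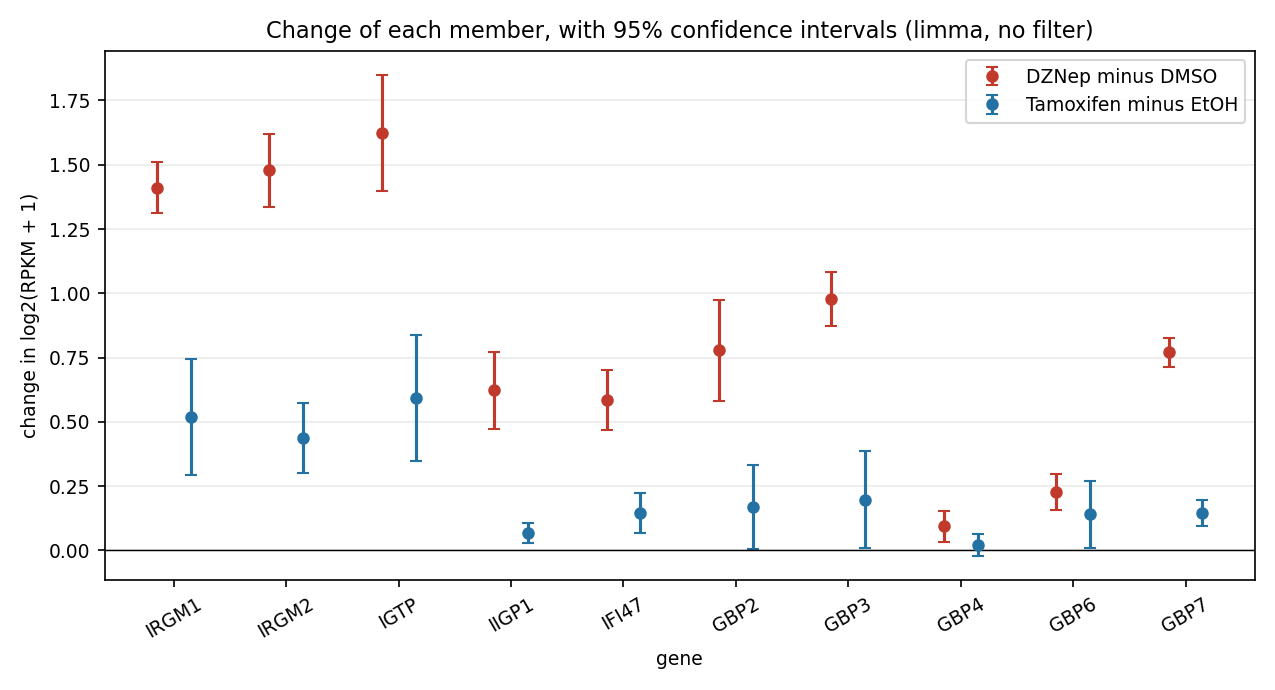
Change of each member on the log2(RPKM + 1) scale with its 95% confidence interval, DZNep minus DMSO and Tamoxifen minus EtOH side by side, from limma fits without a filter on low values. The DZNep change lies above the Tamoxifen change for each of the 10 genes, and the intervals of the 2 overlap for GBP4 and GBP6.

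The third question was whether the response to DZNep differed from that to Tamoxifen. Each term of this test is a difference within an experiment, so the 2 tables were never compared by level, and the agents, like the solvents and library numbers, differ between the experiments. All 3 members above the filter rose more with DZNep than with Tamoxifen. The difference of changes on the log2(RPKM + 1) scale was 0.89 for IRGM1 (SE 0.0885, adjusted p = 2.32e-04), 1.04 for IRGM2 (SE 0.0941, adjusted p = 1.43e-04) and 1.03 for IGTP (SE 0.138, adjusted p = 0.00116), by limma among 10994 genes, of which 19.9% passed in either direction and 10.7% were higher.

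Without the filter 8 of the 10 members passed, all higher with DZNep, among 15965 genes of which 13.3% passed in either direction and 7.47% were higher. GBP3 differed by 0.78 (SE 0.0794, adjusted p = 0.00143), GBP7 by 0.63 (SE 0.0303, adjusted p = 4.87e-05) and GBP2 by 0.61 (SE 0.117, adjusted p = 0.0151), by limma on the same scale. IIGP1 differed by 0.55 (SE 0.0818, adjusted p = 0.00554) and IFI47 by 0.44 (SE 0.0663, adjusted p = 0.00603), also by limma. The 2 genes of chromosome 5 did not pass: GBP6 differed by 0.088 (95% interval -0.039 to 0.21, adjusted p = 0.336) and GBP4 by 0.072 (95% interval -0.011 to 0.15, adjusted p = 0.229), so a difference of up to 0.21 for GBP6 is within its interval. The GBP2 difference was lost without the second Tamoxifen library (adjusted p = 0.0659).

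The members also differed from one another in level, in an order that was largely kept between groups. IRGM1 came first and GBP4 last in all 4 groups, and GBP2 was the highest GBP gene in each. IGTP lay above IRGM2 without overlap in the DZNep and the Tamoxifen libraries, while their ranges overlapped in the DMSO and the EtOH libraries. In the DZNep libraries the ranges of GBP2 and GBP3 overlapped, as did those of IIGP1 and IFI47. In the DMSO libraries GBP3, GBP7, GBP6, IFI47 and IIGP1 formed a chain in which each range overlapped the next. With DZNep, GBP7 stood at 0.975 RPKM or more and GBP6 at 0.395 RPKM or less, whereas their ranges overlapped in the DMSO libraries.

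Summed, the 10 genes reached 52.3 to 53.3 RPKM in the DZNep libraries, against 16.2 to 16.8 RPKM in the DMSO libraries, and 23.4 to 26.3 RPKM in the Tamoxifen libraries, against 15.7 to 16.7 RPKM in the EtOH libraries. IRGM1 supplied most of each sum, 66.9 to 71.5% with DZNep, against 77.9 to 80.5% with DMSO, and 79.1 to 80.3% with Tamoxifen, against 83.2 to 83.8% with EtOH. The 5 GBP genes together summed to 3.81 to 4.37 RPKM with DZNep, against 0.856 to 0.957 RPKM with DMSO, and to 1.25 to 1.37 RPKM with Tamoxifen, against 0.667 to 0.784 RPKM with EtOH. The share of IRGM1 was lower in every treated library than in any control library of its experiment.

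Genes with a like pattern were ranked over the 10 libraries by the root mean square difference from the mean profile of IRGM1, IRGM2 and IGTP, each gene centred on the control mean of its experiment. Among the 5 nearest of 10991 genes were IRF9 at 0.0915, LGALS9 at 0.146, SLFN2 at 0.152 and a RIKEN cDNA gene without a name at 0.173, on the log2(RPKM + 1) scale, while the median gene lay at 0.853. IRF9, the DNA-binding subunit of an interferon-stimulated factor complex, had a mean change of 1.45 with DZNep, against 1.50 for the profile, and of 0.65 with Tamoxifen, against 0.52 for the profile.

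Of the genes that carry interferon signals or act on these families, 5 of 18 tested rose with DZNep, 1 fell and 12 did not pass. The share that passed in either direction was not far from the 27.7% of all genes, of which 16.6% were higher. The median change was 0.095, against 0.015 for all genes tested. IRF7, a regulator of interferon genes, averaged 21.9 ± 1.18 RPKM with DZNep and 5.68 ± 0.252 RPKM with DMSO (SD, n = 3 each). IRF9 averaged 35.2 ± 1.29 RPKM with DZNep and 12.3 ± 0.749 RPKM with DMSO (SD, n = 3 each). Both were clear of their controls, with changes of 1.78 for IRF7 (adjusted p = 1.52e-06) and 1.45 for IRF9 (adjusted p = 4.59e-06) by limma. Also past the threshold, and named after their values were seen, were STAT2 (1.18) and USP18 (1.05), higher, and SOCS3 (-0.64), lower. IFNG, the interferon itself, was listed at 0 in all 10 libraries, and IRF1, a factor that GBP genes depend on in interferon gamma responses, had a change of 0.12 (adjusted p = 0.101 by limma). IFNGR1, a receptor chain, averaged 55.9 ± 0.392 RPKM with DZNep and 60.8 ± 1.30 RPKM with DMSO (SD, n = 3 each; adjusted p = 0.0733 by limma). With Tamoxifen 3 of 19 rose and none fell: IRF7 by 0.76 (adjusted p = 0.0263), IRF9 by 0.65 (adjusted p = 0.0305) and USP18 by 0.52 (adjusted p = 0.0305), by limma. Of all genes tested with Tamoxifen, 2.07% passed in either direction and 0.692% were higher.

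GBPs and IRG proteins find vacuoles with the help of the ATG8 conjugation machinery, ubiquitin ligases and galectins. Of 21 such genes, 5 rose with DZNep and 1 fell, a share close to the 27.7% of all genes that passed, and with Tamoxifen none of 21 passed. The 3 with the smallest p were TRIM21, a ubiquitin ligase and antibody receptor (0.79, adjusted p = 4.45e-04), MAP1LC3B, an ATG8 protein (0.25, adjusted p = 0.0106), and LGALS3, a galectin, which fell by 0.24 (adjusted p = 0.0148), all by limma. ATG5, to which these proteins owe much of their targeting in mouse cells, changed by 0.20 with DZNep and by -0.22 with Tamoxifen, and only the DZNep change passed (adjusted p = 0.0242, against 0.102 with Tamoxifen, by limma). The difference between these 2 changes was 0.43 (adjusted p = 0.00542 by limma).

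Genes of cytosolic lipopolysaccharide sensing, AIM2 and pyroptosis, the pathway GBPs feed into, had 8 of 13 tested members higher with DZNep and none lower, where 16.6% of all genes were higher, with a median change of 0.52. Of these, ZBP1 and GSDMC averaged below 1 RPKM with DMSO and were in the fit through their DZNep libraries; without a filter 8 of 18 were higher, against 10.3% of all genes, and the median change was 0.065. ZBP1, which senses nucleic acids of the Z form, had 2.86, 2.61 and 2.49 RPKM with DZNep, against 0.462, 0.343 and 0.467 RPKM with DMSO (1.36, adjusted p = 2.93e-05 by limma). CASP4, the mouse caspase that binds lipopolysaccharide, changed by 0.60 (adjusted p = 2.23e-04) and IL18, a cytokine cut by inflammasome caspases, by 0.96 (adjusted p = 3.79e-04), both by limma. AIM2, the DNA sensor, was level, with 33.0, 33.9 and 32.8 RPKM with DZNep, against 33.0, 34.3 and 32.3 RPKM with DMSO. With Tamoxifen 2 of 11 rose, CD14 by 0.50 (adjusted p = 0.0305) and GSDMD by 0.42 (adjusted p = 0.0424), and IL18 fell by 0.70 (adjusted p = 0.0305), by limma. In that fit 2.07% of all genes passed in either direction and 0.692% were higher. IL18 was at 3.83 and 3.62 RPKM with Tamoxifen, against 6.30 and 7.07 RPKM with EtOH, so it moved in opposite directions in the 2 experiments, a difference of 1.66 on the log2(RPKM + 1) scale (adjusted p = 7.74e-05 by limma).

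Genes of prenylation, the lipid anchoring used by some GBPs, had few calls within either experiment. Of 8 prenylation genes none rose with DZNep and ICMT, which methylates prenylated ends, fell by 0.15 (adjusted p = 0.0496 by limma), a call lost without a filter (adjusted p = 0.0687), and none passed with Tamoxifen. The Tamoxifen calls in the interferon signalling and pyroptosis lists were lost without a filter as well, since no listed gene passed there. Of all genes averaging at least 1 RPKM, 27.7% passed with DZNep in either direction and 16.6% were higher. Of 12 other GTPases of the dynamin superfamily, to which GBPs are related, none passed with Tamoxifen, none fell with DZNep and 3 rose with DZNep. These were the antiviral GTPases MX2 (1.35, adjusted p = 2.54e-05), which averaged 0.450 RPKM with DMSO and was in the fit through its DZNep libraries, and MX1 (1.05, adjusted p = 3.13e-04), and EHD2, a membrane-shaping protein (0.24, adjusted p = 0.015), by limma. Without a filter 4 of 16 rose with DZNep and 1 fell, where 17.3% of all genes passed in either direction and 10.3% were higher.

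Within the wider families, 19 further IRG and GBP genes were in the chemical table and 1 of them, IRGQ, averaged 1 RPKM or more. IRGQ, a distant IRG relative, had 7.29, 7.66 and 6.09 RPKM with DZNep, against 6.67, 7.72 and 7.32 RPKM with DMSO, and its groups overlapped (change -0.043, adjusted p = 0.732 by limma). In the fit without a filter 7 of the 19 rose with DZNep, where 10.3% of all genes did, and none fell, and none of 18 passed with Tamoxifen. TGTP2, an effector IRG gene of the row that ends with IFI47, had 0.830, 0.801 and 0.908 RPKM with DZNep, against 0.119, 0.0953 and 0.0939 RPKM with DMSO (0.74, adjusted p = 1.68e-04 by limma). GBP9 had 0.507, 0.460 and 0.597 RPKM with DZNep, against 0.132, 0.102 and 0.113 RPKM with DMSO (0.45, adjusted p = 0.00184 by limma), and lies beside GBP4, whose level was far lower. TGTP1, a near copy of TGTP2, had 0.678, 0.0054 and 0.598 RPKM in the DZNep libraries, against 0.0803, 0.0679 and 0.0785 RPKM in the DMSO libraries. Its second DZNep library was thus below all DMSO libraries while TGTP2 was high in that library, and since the treatment of reads that fit both copies is not given, values of this pair are uncertain. GBP2B, GBP5, GBP8 and GBP11 did not exceed 0.0228 RPKM in any library.

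**Figure D5:**
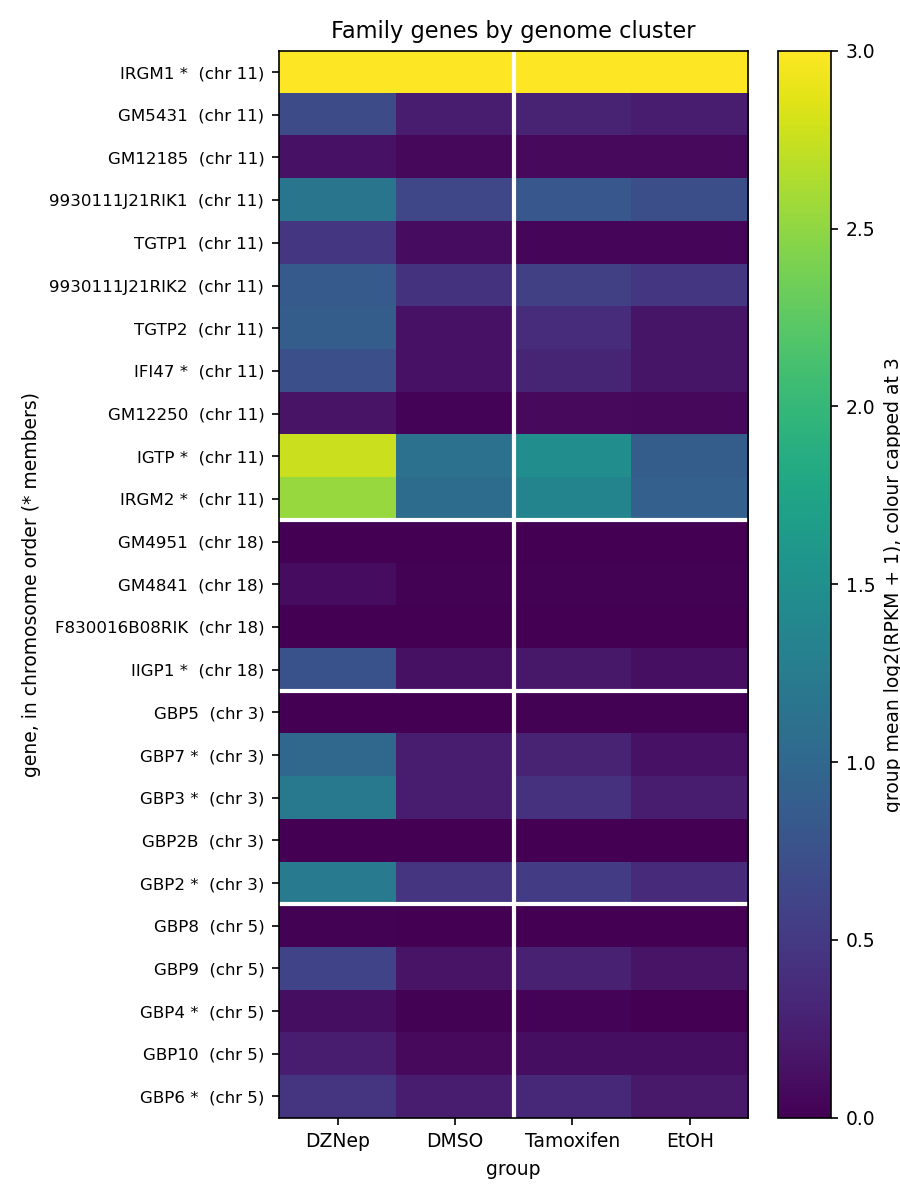
Group mean log2(RPKM + 1) of IRG and GBP genes in chromosome order, members starred, with DZNep left of DMSO and Tamoxifen left of EtOH; the colour scale is capped at 3, which IRGM1 exceeds. Within each row of neighbours, genes near 0 in all 4 groups, such as GBP5 and GBP2B, lie beside genes that are brighter in the DZNep column.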

How the data were processed

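Per the labels' protocols, 500 ng of TRIzol-extracted RNA went into each stranded mRNA library, made with a TruSeq kit. The submitters' processing notes name bcl2fastq 2.18, STAR, Cufflinks and build mm9; other versions, the annotation, strand counting and how multiply aligned reads were treated are not given in the sources used here. What the authors deposited are log2 RPKM values, 1 table per experiment, with a floor of 0, read here as log2(RPKM + 1), and RPKM was recovered from that. Each table held 24043 gene rows, and 27 of the genetic table were dropped because their symbols had become dates; a further 2 rows there held no value. Read depth is unknown and counts cannot be recovered, so no counting error is given.

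Genes averaging at least 1 RPKM over a table's libraries were tested with limma 3.58.1 in R 4.3.3 (moderated, two-sided, mean trend), each experiment alone, adjusted by Benjamini and Hochberg over all genes tested, with a threshold of 0.05. The difference of responses used 1 fit of 4 group means over 10 libraries. Members below the filter are given from the same fit without it. The steps were tested on simulated data. No 2 libraries held identical values. Nothing in the labels says whether replicates are separate cultures or animals, and p-values therefore reflect the spread between libraries, which may be technical. The 10 genes and the gene lists were chosen with earlier results of these data known, and list counts are descriptions. All 10 genes were named; of each list, the 3 called genes with the smallest p were named, except that 1 item is not reported here, and other names are marked or were chosen after their values were seen. Promoters are those of RefSeq on GRCm38.p6, another build than that of the values.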

Additional observations from a re-analysis of the deposited data

Results flagged for a closer look

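The response to DZNep exceeded the response to Tamoxifen, by a test of the difference itself, in 8 of the 10 genes in the fit without a filter. There 13.3% of all genes passed in either direction and 7.47% had a larger change with DZNep. With the filter all 3 members tested passed, where 19.9% of all genes passed in either direction and 10.7% had a larger change with DZNep. In the limma fit of genes averaging at least 1 RPKM, the difference on the log2(RPKM + 1) scale was 0.89 for IRGM1, 1.04 for IRGM2 and 1.03 for IGTP. In the fit without a filter it was 0.78 for GBP3, 0.63 for GBP7, 0.61 for GBP2, 0.55 for IIGP1 and 0.44 for IFI47. For each of these genes both changes were above 0, so the difference is one of size. The agents, their solvents and the number of libraries differ between the experiments, and their parts cannot be told apart. No group had the 4 libraries needed to look for a single library that stands apart.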

How the results depend on the processing

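With DZNep, IRGM1, IRGM2 and IGTP were called higher under each alternative that tested them, and the 3 differences from Tamoxifen likewise. A filter of 5 RPKM left 1 member tested and called in the DZNep test and in the test of the difference. Without a filter 9 and 8 members were called, and with Tamoxifen 0. The median change of the tested members was 1.48 with DZNep, against 2.05 with a pseudocount of 0.1, 0.77 without a filter and 1.41 with a filter of 5 RPKM; with Tamoxifen it was 0.52, against 0.75 and 0.16 under the first 2 of these. The number of members called with Tamoxifen was 1, against 3 with robust variances and in a joint fit of 10 libraries, 2 with the replicate block, and 0 to 2 when leaving out a library, a range that reaches 0 without either Tamoxifen library or the first EtOH library. With no mean trend IRGM2 (adjusted p = 0.0468) and not IRGM1 passed, and with the block IGTP did (adjusted p = 0.0284) beside IRGM1.

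All genes called numbered 3088 with DZNep, 1610 with the replicate block and 1522 to 3359 when leaving out a library. They numbered 230 with Tamoxifen, against 1 without a filter, 396 with trimmed mean scaling, 646 with robust variances, 878 with the replicate block, 1053 in the joint fit and 37 to 977 when leaving out a library. For the difference they numbered 2190, against 1226 with the replicate block and 924 to 2326 when leaving out a library. Higher and lower calls with DZNep split 1850 to 1238, against 1636 to 1637 after quantile normalization and 1622 to 1505 with trimmed mean scaling, while no member changed direction. Replicate numbers showed little sign of pairing in the chemical experiment, where deviations of same-numbered libraries correlated at 0.0591, 0.0591 and -0.0675. In the genetic experiment the value was 0.0400. With 2 libraries a group, differently numbered libraries must give that value with its sign reversed, so this check cannot exclude pairing there. With the replicate block the GBP2 difference was lost (adjusted p = 0.0659 by limma). The Tamoxifen change of EZH2 was -0.058 without the first EtOH library and 0.21 without the second, its range when leaving out a library. The causes were not tested. Among settings combined with no filter, chosen after seeing the data, with Tamoxifen 4 members passed in the joint fit, and GBP4 passed with DZNep in 4, and 6 members below the filter passed in every one. Depth is unknown, and values under 1 RPKM carry the most uncertainty.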

Other observations

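The difference between the 2 responses was read for the neighbouring gene lists too. Of 18 further IRG and GBP genes tested without a filter, 5 rose more with DZNep than with Tamoxifen, where 7.47% of all genes did, and none less: TGTP2 by 0.53 (adjusted p = 0.0019), GM5431 by 0.42 (adjusted p = 0.0126), GBP9 by 0.33 (adjusted p = 0.00655), GBP10 by 0.16 (adjusted p = 0.0445) and GM12250 by 0.13 (adjusted p = 0.0259), by limma on the log2(RPKM + 1) scale. Among interferon signalling genes, 6 of 18 had a larger change with DZNep and 1 a smaller one, where 10.7% of all genes had a larger one and 19.9% passed in either direction. IRF7 stood at 1.02 (adjusted p = 1.21e-04) and IRF9 at 0.79 (adjusted p = 5.66e-04), while SOCS3, an inhibitor of cytokine signalling, stood at -0.73 (adjusted p = 7.59e-04), all by limma. IRF1 stood at -0.17 and did not pass (adjusted p = 0.143 by limma).

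Of the 8 prenylation genes, 3 passed upward in the difference and 1 downward, where 10.7% of all genes passed upward and 19.9% in either direction. The 3 upward calls were lost without a filter, where 0 passed upward and 1 downward. PGGT1B, a subunit of a geranylgeranyl transferase, stood at 0.35 (adjusted p = 0.0362), ZMPSTE24, a protease of prenylated proteins, at 0.34 (adjusted p = 0.0453), GGPS1, which makes the geranylgeranyl donor, at 0.30 (adjusted p = 0.0394) and ICMT at -0.34 (adjusted p = 0.0105), by limma.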
